A study of Mus musculus with 50 samples.

Results

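The genes described here are 10 members of the ETS family of transcription factors, namely Spi1, Spib, Elf1, Elf3, Elf4, Ehf, Ets1, Ets2, Fli1 and Erg. They were taken by name from the gene count files, where all 10 were found among 24984 genes, and from the ATAC-seq peak lists, where peaks at these genes were read. They were chosen as a gene family with earlier results of these data known, and the rule itself uses no measured value. The study asked how gene expression and chromatin accessibility change with age in the kidney and liver of C57BL/6 mice. RNA-seq covered untreated young mice (2.5 months) and untreated old mice (23 to 25 months), with 4 libraries for each tissue and age. Mice of 20 to 21 months received either the solvent DMSO or a treatment labelled 3C, and their kidneys and livers gave 4 libraries in each of 4 groups. P9 mouse skin fibroblasts with DMSO or 3C gave 3 libraries each. ATAC-seq, which maps stretches of DNA open to the Tn5 transposase, covered the 4 untreated groups with 3 libraries each. What 3C is, and how P9 is meant, is not stated in the labels. The study's methods name female mice, and neither they nor the labels say whether 2 tissues came from 1 animal, so p-values measure the spread between these samples.

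ETS factors share a DNA-binding domain that reads a short core, GGAA, and the bases around it separate the classes of the family. SPI1 (PU.1) is required for macrophages and other myeloid cells and for B cells, and SPIB is its close relative in B cells and plasmacytoid dendritic cells. FLI1, ERG and ETS1 act in endothelial and blood cells, ELF3 and EHF are epithelial factors, and ELF1, ELF4 and ETS2 are found in many cell types. SPI1 and SPIB prefer a core preceded by an A-rich or G-rich flank, written here as GAGGAAGT, while the ETS and ELF classes prefer CCGGAAGT.

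The RNA-seq libraries held between 14.2 and 43.7 M counted reads, and levels are given as CPM (counts scaled to 1 M reads after TMM normalisation). In the 16 untreated libraries the markers of hepatocytes were high in liver and those of the proximal tubule in kidney. One library, old kidney replicate 2, stood apart with 2199 CPM of summed hepatocyte markers against 119 to 203 CPM in the other 7 untreated kidney libraries. It also held 11.3 CPM of Kupffer cell markers, which were at 2.07 CPM or below in those 7, so the kidney results on Spi1 and Spib are given without it too. In whole tissue, fewer cells of a type and less RNA per cell cannot be told apart. Of the exons of Elf1, 4.85% lie opposite Wbp4, and of those of Elf3, 7.31% lie opposite Gm26642, and counts made without strand cannot tell such reads apart.

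The promoters show how unlike these genes are at their starts. RefSeq promoters (GRCm38.p6) were found for 6 of the 10 members, and for 4 genes the bases just before the start are printed 5′ to 3′, with every GGAA and its reverse complement TTCC in capitals. Spib is shown as the member with the largest log2 fold change with age in kidney and with no promoter peak, Elf1 as the member whose promoter peak heights are given in full below, Elf3 as the kidney epithelial member, and Elf4 as the promoter with the most cores.

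Spib, chr7:44532072-44532321, minus strand: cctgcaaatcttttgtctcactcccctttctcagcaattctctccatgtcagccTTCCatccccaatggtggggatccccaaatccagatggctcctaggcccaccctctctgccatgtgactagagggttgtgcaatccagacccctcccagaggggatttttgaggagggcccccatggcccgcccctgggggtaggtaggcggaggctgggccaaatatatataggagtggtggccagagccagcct

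Elf1, chr14:79480944-79481193, plus strand: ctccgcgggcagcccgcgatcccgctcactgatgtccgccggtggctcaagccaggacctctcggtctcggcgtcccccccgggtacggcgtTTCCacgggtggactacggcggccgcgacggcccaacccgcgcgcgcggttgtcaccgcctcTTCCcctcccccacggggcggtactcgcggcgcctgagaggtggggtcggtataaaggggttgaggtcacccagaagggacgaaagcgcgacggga

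Elf3, chr1:135258569-135258722, minus strand, the stretch before the outermost annotated start: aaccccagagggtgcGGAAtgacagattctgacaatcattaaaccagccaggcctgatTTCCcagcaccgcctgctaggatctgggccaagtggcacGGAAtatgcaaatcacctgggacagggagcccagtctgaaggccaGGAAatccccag

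Elf4, chrX:48463133-48463382, minus strand: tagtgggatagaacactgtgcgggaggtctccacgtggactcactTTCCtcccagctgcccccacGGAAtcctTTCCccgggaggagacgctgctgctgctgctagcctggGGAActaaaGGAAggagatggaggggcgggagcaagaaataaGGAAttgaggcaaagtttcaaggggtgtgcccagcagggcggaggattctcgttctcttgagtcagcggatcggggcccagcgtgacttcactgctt

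The Spib window held 1 core and 2 CG pairs, and that of Elf1 held 2 cores and 35 CG pairs. Elf3 held 4 cores in its 154 bases and Elf4 held 6. Over 32536 RefSeq promoters of 250 bases the median was 3 cores and 6 CG pairs. None of the 4 windows held GAGGAAGT or CCGGAAGT on either strand, and 2.45% and 2.90% of all promoters do. No match says only that these letters are not in the window.

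Levels between genes were compared per kb of annotated exon. In young kidney the order was led by Elf3 (8.58 ± 0.214 CPM per kb, SD, n = 4) and Ets2 (7.0 ± 0.787), and Spib was lowest (0.109 ± 0.0649). In old kidney Elf3 stood at 14.4 ± 1.99 CPM per kb, and Spi1 moved from the eighth to the fourth place with 4.49 ± 2.04. In young liver Ets2 (6.34 ± 0.686 CPM per kb) and Spi1 (4.24 ± 1.38) led, and Elf3 was lowest (0.234 ± 0.147). In old liver Spi1 was first with 9.14 ± 3.01 CPM per kb, ahead of Ets2 with 5.94 ± 1.22. In DMSO fibroblasts Ets2 (7.74 ± 1.75 CPM per kb, n = 3) and Elf1 (4.54 ± 0.492) led, and Ehf was at 0 counts in all 6 fibroblast libraries, where 3 counts would be 0.125 to 0.193 CPM. Elf4 stood at 16.9 ± 2.75 CPM in DMSO fibroblasts.

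In kidney, Spi1 and Spib rose with age, and no other member was called. A gene was called at an adjusted p (Benjamini-Hochberg) below 0.05 and a fold change over 2 in edgeR's quasi-likelihood test. The 2 members called of 10 compare with 6.08% of the 14495 genes tested, and with 5.68% called higher. The median log2 fold change was 0.25 over the members and 0.02 over all genes.

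Spi1 stood at 1.81, 2.83, 2.70 and 2.30 CPM in the young kidneys and at 9.63, 11.1, 7.63 and 20.1 CPM in the old. Every old library was above every young one, and replicate 4 was the highest. The log2 fold change was 2.41 ± 0.33 (SE, n = 4 per age), a fold of 5.30, with an adjusted p of 0.00198 in edgeR. Without old kidney replicate 2 it was 2.44, and without replicate 4 it was 2.02, and both kept the call.

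Spib stood at 0.0376, 0.444, 0.401 and 0.370 CPM in the young kidneys, on counts of 1, 14, 8 and 9. In the old kidneys it stood at 3.33, 7.05, 1.09 and 2.97 CPM, on counts of 95, 282, 33 and 211. The groups did not overlap, and here replicate 2 was the highest. The log2 fold change was 3.60 ± 0.68, with an edgeR adjusted p of 0.00892, and it was 3.02 without replicate 2 (adjusted p = 0.00989 in edgeR). It rests on few reads in the young group.

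Elf3, an epithelial factor, stood at 18.4, 19.0, 19.5 and 19.2 CPM in the young kidneys and at 31.1, 26.2, 36.6 and 33.7 CPM in the old. The 4 young values lay close together and below all old ones. Its log2 fold change of 0.80 ± 0.11 passed the adjusted p of the edgeR test (0.00229) but not the fold of 2, and 11.5% of all genes passed the adjusted p with or without the fold. The summed proximal tubule markers stood at 5756 to 7642 CPM in the young and 3342 to 4332 CPM in the old kidneys, with 0 of 5 above a log2 fold change of 0 and none called, and their part in the result was not tested. Fli1 was higher in every old kidney too, at 5.16 to 6.10 CPM in the young and 6.18 to 8.40 in the old, with a log2 fold change of 0.40 ± 0.16 that did not pass (adjusted p = 0.135). In kidney 10.9% of all genes had every old library above every young one, against 4 of the 10 members.

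**Figure D1:**
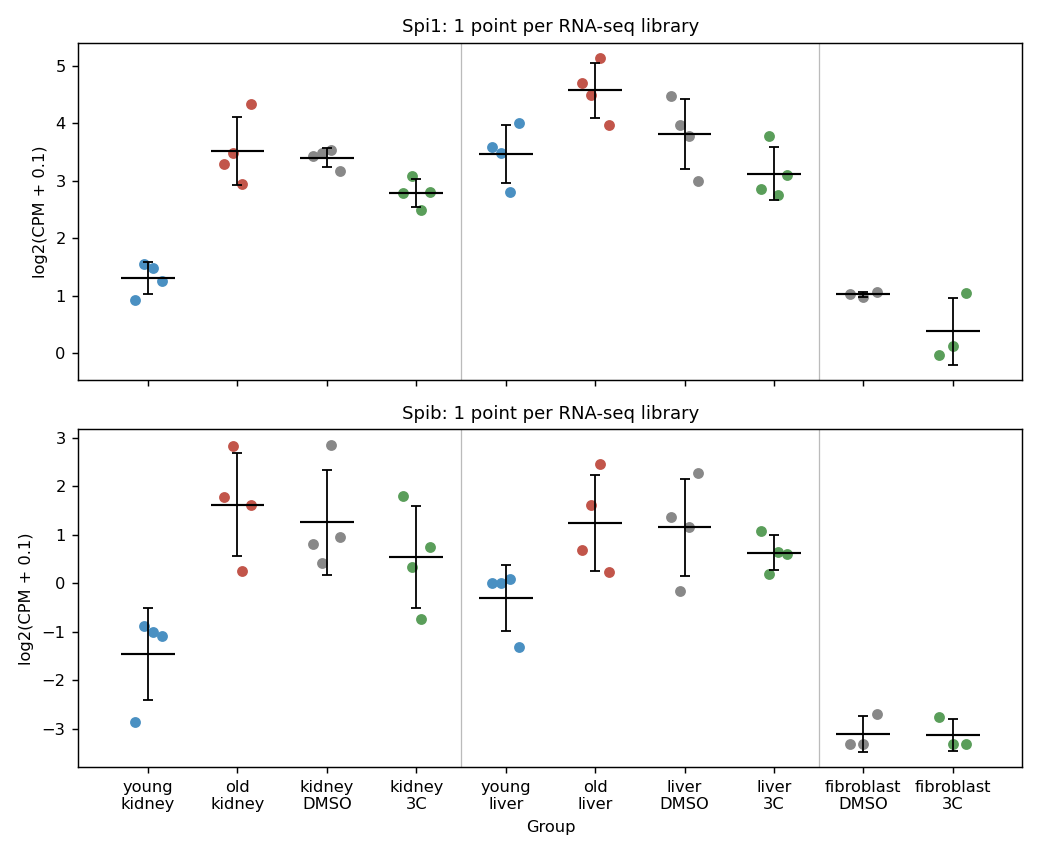
Levels of Spi1 (top) and Spib (bottom) on the vertical axis as log2(CPM + 0.1), by group, with 1 point per RNA-seq library and the mean ± SD as bars. The 4 young kidney libraries lie below the 4 old ones for both genes, and Spib lies near 0 counts in the fibroblasts.

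In kidney, Elf4 had a log2 fold change of 0.84 ± 0.37 (adjusted p = 0.160), Erg of -0.33 ± 0.16 (adjusted p = 0.205) and Elf1 of -0.33 ± 0.26 (adjusted p = 0.405). Under other settings and with single libraries left out, that of Elf1 ran from -0.57 to -0.16 and that of Erg from -0.45 to -0.24. Ets1 (0.10), Ets2 (-0.02) and Ehf (0.01) lay near 0. Elf1, Ets1 and Ets2 varied together between libraries. After the tissue means were taken out, Pearson's r over the 16 untreated libraries was 0.82 for Elf1 with Ets1, 0.82 for Elf1 with Ets2 and 0.85 for Ets1 with Ets2. Old kidney replicates 1 and 3 and old liver replicate 1 held the lowest values of all 3 genes among the old libraries of their tissue. In these 3 libraries long genes were also lower, with slopes of -0.18, -0.26 and -0.35 log2 units for each doubling of exon length relative to the mean of the 8 libraries of the tissue. These were the steepest falls in kidney and liver, and their part in these values was not tested. With the length trend taken out, Spi1 (2.28) and Spib (3.52) were still called in kidney.

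In liver no member was called with age in edgeR, against 2.13% of 12537 genes, and 4 members had an unadjusted p below 0.05, against 14.7% of all genes. DESeq2 called 3 of them, Spi1, Spib and Elf3, and 4.75% of all genes. The median log2 fold change was 0.50 over the members and 0.00 over all genes. The summed hepatocyte markers stood at 179139 to 274202 CPM in the young and 96204 to 189705 CPM in the old livers, with 0 of 5 above a log2 fold change of 0 (median -0.51) and none called, and their part in these values was not tested.

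Spi1 stood at 11.9, 11, 6.86 and 15.9 CPM in the young livers and at 25.7, 22.3, 35.0 and 15.5 CPM in the old. Only old replicate 4 fell within the young range. The log2 fold change was 1.12 ± 0.30, and it missed the threshold in edgeR (adjusted p = 0.0838). Without old liver replicate 4 it was 1.29 and was called (adjusted p = 0.0468 in edgeR).

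Spib stood at 0.904, 0.904, 0.970 and 0.301 CPM in the young livers, on counts of 4 to 15, and at 1.52, 2.98, 5.41 and 1.08 CPM in the old. Its groups did not overlap, and its log2 fold change was 1.84 ± 0.57 (edgeR adjusted p = 0.132). Elf3 was close to the detection limit in liver, at 0.121 to 0.904 CPM in the young and 1.02 to 2.33 CPM in the old. Its groups did not overlap either, with a log2 fold change of 1.90 ± 0.55 (edgeR adjusted p = 0.107). For comparison, 6.05% of all genes had every old liver above every young one.

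Elf4 (1.04 ± 0.43) and Fli1 (0.65 ± 0.35) had positive log2 fold changes in liver and Ehf a negative one (-0.70 ± 0.56), and their edgeR adjusted p values were 0.282, 0.449 and 0.677. Under other settings and with single libraries left out, that of Elf4 ran from 0.73 to 1.30 and that of Fli1 from 0.32 to 0.82. Without young liver replicate 3, which held 3.36 CPM of Ehf against 0.451 to 1.61 CPM in the other 3, the log2 fold change of Ehf was -0.07. Elf1, Ets1, Ets2 and Erg lay between -0.07 and 0.36.

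The age effect on a member was tested for a difference between kidney and liver as an interaction. None of the 10 passed, against 1.72% of 15036 genes. The effect in liver minus that in kidney was -1.23 ± 0.45 on the log2 scale for Spi1 (edgeR adjusted p = 0.200), 1.14 ± 0.45 for Elf3 (adjusted p = 0.242) and -1.70 ± 0.92 for Spib (adjusted p = 0.439). DESeq2 called 0 members too, and 2 members had an unadjusted p below 0.05 in edgeR, against 14% of all genes.

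**Figure D2:**
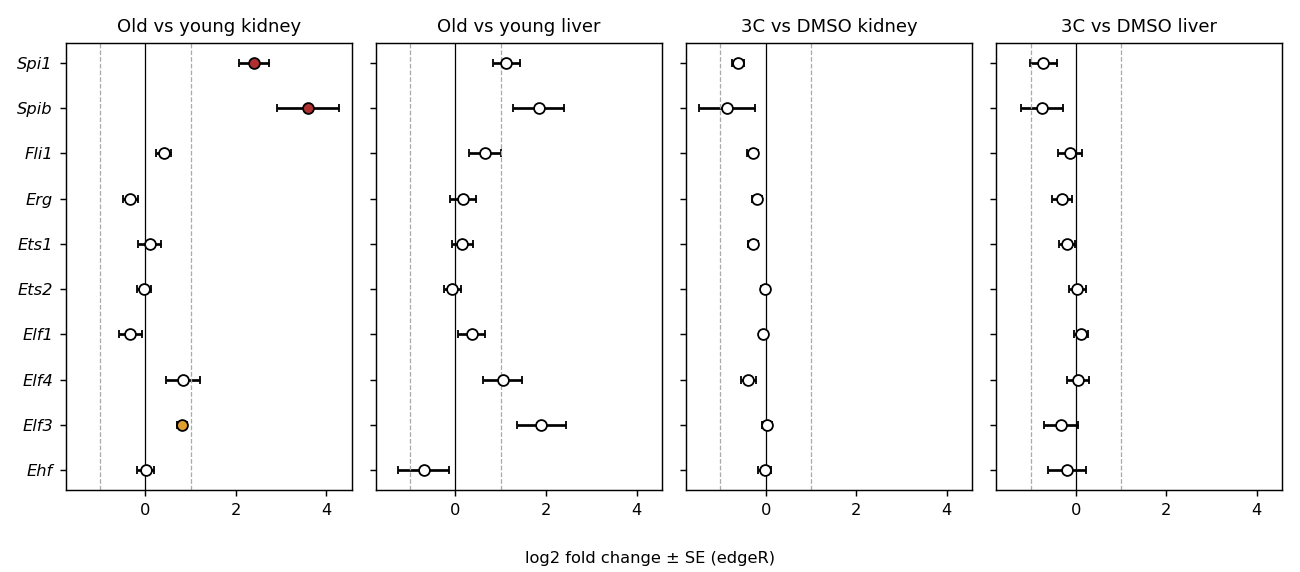
Log2 fold change (horizontal axis, ± SE from edgeR) of the 10 members in 4 comparisons. Red points passed the adjusted p and the fold of 2, the orange point passed the adjusted p alone, open points passed neither, and the dashed lines mark a fold of 2. Spi1 and Spib in kidney are the red points.

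Kidney and liver differed in 3 members at each age. These comparisons use the same untreated libraries as the age comparisons. In young mice Elf3 was higher in kidney by 5.19 ± 0.34 on the log2 scale (edgeR adjusted p = 5.97e-08) and Ehf by 4.21 ± 0.41 (2.06e-06), while Spi1 was lower by 2.25 ± 0.28 (1.72e-05). Of all genes 42.6% were called. Erg was higher in young kidney by 0.53 ± 0.21 (edgeR adjusted p = 0.0388), which passed the adjusted p but not the fold, and 65.4% of all genes passed the adjusted p with or without the fold. Ehf stood at 22.9 to 37.6 CPM in young kidney and at 0.451 to 3.36 CPM in young liver. In old mice the log2 differences were 4.06 ± 0.27 for Elf3 and 4.87 ± 0.25 for Ehf, and -1.01 ± 0.34 for Spi1 (edgeR adjusted p = 0.0271), where 40.7% of all genes were called. The Spi1 call in old mice lies at the fold threshold, and it was lost when any of 5 of the 8 libraries was left out, with log2 differences of -0.80 to -0.99 and edgeR adjusted p of 0.0426 to 0.0839. Spib did not pass in young (-1.29 ± 0.59, edgeR adjusted p = 0.0727) or old mice (0.40 ± 0.61, adjusted p = 0.607), and without young liver replicate 4 it was called lower in young kidney (-1.55, adjusted p = 0.0389). In old mice its log2 difference ran from -0.14 without old kidney replicate 2, where the direction turned, to 0.94 without old liver replicate 3.

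Of the other ETS genes, none of the 12 tested in kidney and none of the 11 tested in liver was called with age. Between tissues, 5 of 13 were called in young and 7 of 13 in old mice, near the 42.6% and 40.7% of all genes. Etv5, Etv1, Elf5 and Etv4 were called higher in kidney at both ages, and Spic, a relative of SPI1 in red pulp macrophages and Kupffer cells, was lower in kidney by 5.21 ± 0.60 in young and 2.94 ± 0.62 in old mice on the log2 scale. In old mice Gabpa and Elk4 were called lower in kidney too.

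The genes that SPI1 is known to switch on in myeloid cells rose with it in kidney. Of 14 such genes, 12 were called higher in old kidney and 0 lower, with a median log2 fold change of 2.32 against 0.02 for all genes. Of all genes 5.68% were called higher. Lyz2, which encodes lysozyme, rose by 3.54 ± 0.30 on the log2 scale, Fcgr1, an IgG receptor, by 3.11 ± 0.42, Cd14, a lipopolysaccharide co-receptor, by 1.71 ± 0.23, and Csf1r, the receptor of the macrophage growth factor, by 1.09 ± 0.13. In liver 5 of the 14 were called higher and 0 lower, with a median of 1.16, against 1.69% of all genes called higher, and these were Ncf1, Csf3r, Lyz2, Itgam and Ncf4. Ncf1, a subunit of the phagocyte oxidase, rose by 1.61 ± 0.27 there. Lyz2, Csf1r, Fcgr1 and Itgam are also macrophage markers, and Csf3r is a neutrophil marker, so these lists are not separate evidence. The summed neutrophil markers stood at 0.527 to 1.65 CPM in young and 4.95 to 18.3 CPM in old kidney and at 3.62 to 7.74 and 18 to 162 CPM in liver, and their part in the result was not tested.

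Of the 12 partner and lineage factors, 3 of the 11 tested were called higher in old kidney, against 5.68% of all genes, and none of the 9 tested was called in liver, against 1.69% called higher. Pou2af1, a B cell co-activator, rose by 5.76 ± 0.51, Runx1, a blood lineage factor, by 2.25 ± 0.46, and Irf8, a partner of SPI1, by 1.08 ± 0.17. Pou2af1 is also in the plasma cell list, whose markers summed to 3.16 to 6.78 CPM in young and 221 to 299 CPM in old kidney, with 3 of 3 tested called higher, and to 1.68 to 2.18 and 17.9 to 88.8 CPM in liver, with 2 of 3. Their part in the result was not tested.

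Markers of macrophages and B cells were called higher in the old tissues, where 5.68% of all genes were called higher in kidney and 1.69% in liver. The summed macrophage markers stood at 135 to 154 CPM in young and 548 to 1075 CPM in old kidney, with all 14 detected and 12 called higher. In liver they stood at 846 to 1252 CPM in young and 1242 to 2370 CPM in old mice, with 4 called higher. The 4 Kupffer cell markers summed to 354 to 579 CPM in young and 455 to 854 CPM in old liver. The summed B cell markers stood at 2.45 to 4.70 CPM in young and 23.9 to 64.8 CPM in old kidney, with 7 of the 9 tested called higher, and at 10.6 to 12.5 and 18.6 to 76.0 CPM in liver, with 2 of 6. The plasmacytoid dendritic cell markers summed to 2.0 to 3.08 CPM in young and 2.02 to 2.97 CPM in old kidney. Of these 4 markers only 3 were tested in kidney and 1 in liver, and none was called.

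Spi1, Spib, Ets1, Fli1, Erg, Elf3 and Ehf were therefore set against the markers of cells they are known from, as the log2 ratio of its CPM to their summed CPM. Spi1 over the macrophage markers gave -5.86 ± 0.35 for the young kidneys and -5.90 ± 0.18 for the old (SD, n = 4), a difference of -0.03 (exact permutation p = 0.886). In liver the difference was 0.21 (exact permutation p = 0.286). The ratio of Spib to the B cell markers differed by -0.33 in kidney (exact permutation p = 0.657) and by -0.10 in liver (exact permutation p = 0.800). With all libraries the ages overlapped in these 4 ratios. With 1 library left out, the Spi1 difference ran from -0.17 to 0.08 in kidney and was 0.07 without young liver replicate 3, and the ages overlapped throughout. The Spib difference ran from -0.95 to -0.03 in kidney and from -0.43 to 0.05 in liver, where it was above 0 without young replicate 1 or 3. In kidney it was near 0 without young replicate 3 (-0.03) or old replicate 3 (-0.08). Without young kidney replicate 1, which held 1 count of Spib, the difference in kidney was -0.95. Without young liver replicate 4 that in liver was -0.43. In both cases every old library lay below every young library left. The exact permutation p was 0.0571 with the smaller one-sided p doubled, the smallest that 3 against 4 allows in that form. The other libraries left out kept the overlap. A p above the threshold does not show the ratios to be equal. The part of these cells in the rise of Spi1 and Spib was not tested.

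**Figure D3:**
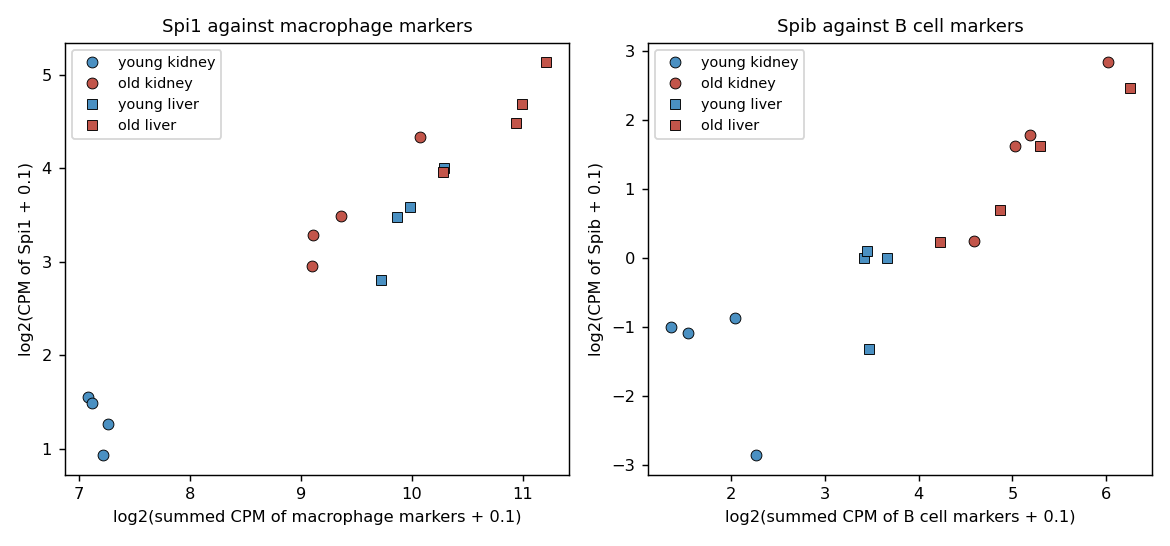
Spi1 against the summed macrophage markers (left) and Spib against the summed B cell markers (right), both axes as log2(CPM + 0.1), with 1 point per untreated library. Circles are kidney and squares liver, blue young and red old. Young kidney libraries lie at the lower left of both plots, and the other groups extend to the upper right.

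Of the 16 ratios, 5 had groups that did not overlap, each at the smallest exact permutation p that 4 against 4 allows, 0.0286, and 0.0914 after adjustment over the 16, so none passed. Ets1 relative to T cell markers was lower in old mice, by 2.31 in kidney and 1.10 in liver on the log2 scale. The T cell markers summed to 4.77 to 7.19 CPM in young and 24.5 to 35.6 CPM in old kidney, with 8 of the 10 tested called higher, while Ets1 had the log2 fold change of 0.10 given above. In liver they summed to 5.07 to 8.78 CPM in young and 14.4 to 20.9 CPM in old mice, with 1 of the 8 tested called higher. None of the 12 endothelial markers was called with age in kidney or liver. Erg relative to them was lower in old kidney by 0.56, at -5.30 ± 0.19 in young and -5.86 ± 0.17 in old mice. Elf3 relative to the collecting duct and distal epithelium markers was higher in old kidney by 0.49, and relative to the cholangiocyte markers it was higher in old liver by 1.72, on the low counts given above. For Ehf the same ratios differed by -0.30 in kidney and -0.51 in liver, and the ages overlapped.

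The genes whose levels followed a member most closely were found over the 16 untreated libraries after the mean of each tissue was taken out, among 13916 genes. For Spi1 they were Pld4 (r = 0.98), Slc11a1 (0.97) and Hcls1 (0.97). For Spib they were Fcrl5 (0.94), Epsti1 (0.92) and Bank1 (0.92). For Erg they were Slc2a9 (0.92), Prkab2 (0.90) and Brd8 (0.88), and for Fli1 Foxred2 (0.92), Cyfip2 (0.90) and Filip1l (0.89). Cyfip2 followed Fli1 in liver (r = 0.98) but hardly in kidney (0.17). The libraries share ages, depth and the length trend given above, so these values are a description. Spi1 and Spib had r = 0.84 with each other.

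With 3C, no member was called in kidney, liver or fibroblasts in edgeR. In kidney edgeR called 0 of all 14974 genes, 1786 (11.9%) had an unadjusted p below 0.05, and DESeq2 called 5. In kidney 9 of 10 members had log2 fold changes below 0, with a median of -0.23 against 0.00 for all genes, and 4 members, Spi1, Elf4, Ets1 and Fli1, had an unadjusted p below 0.05.

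Spi1 stood at 10.6, 11, 11.5 and 8.88 CPM in the kidneys with DMSO and at 6.82, 8.32, 5.51 and 6.90 CPM with 3C. Every 3C library was below every DMSO library, as for 3.84% of all genes. The log2 fold change was -0.61 ± 0.14, with an unadjusted edgeR p of 0.000986 and an adjusted p of 0.195. DESeq2 gave an adjusted p of 0.0126, still without a fold of 2. The summed macrophage markers stood at 519 to 577 CPM with DMSO and 325 to 496 CPM with 3C, and all 14 SPI1 target genes had log2 fold changes below 0, with a median of -0.44 and none called. Every tested marker of fibroblasts, endothelial, T, B, plasma (3 genes) and NK cells (2 genes) had a log2 fold change below 0 as well, and none was called. Those of fibroblasts summed to 410 to 536 CPM with DMSO and 219 to 363 CPM with 3C (7 tested, median -0.70), and those of endothelial cells, which express Ets1, Fli1 and Erg, to 635 to 729 and 468 to 697 CPM (12 tested, median -0.14). The proximal tubule markers went the other way, with sums of 5183 to 6154 CPM with DMSO and 5689 to 6807 CPM with 3C. DMSO kidney replicate 3 stood apart in lymphoid markers, at 56.3 CPM for T cells, 78.3 for B cells and 261 for plasma cells. The other 3 DMSO libraries lay at 25.1 to 31.1, 11.9 to 24.1 and 74.9 to 91.1 CPM, and the 3C libraries at 17.2 to 27.5, 8.56 to 23.7 and 85.1 to 143 CPM, so these overlapped. For plasma cells the median sum over all libraries was higher with 3C (114 CPM) than with DMSO (87.5 CPM). The median over the 14 macrophage markers was -0.54, and the part of these cells in the result was not tested. Spib had a log2 fold change of -0.85 ± 0.62 (edgeR adjusted p = 0.645), with DMSO kidney replicate 3 at 7.15 CPM and the other 3 at 1.24 to 1.84 CPM. Without that library the log2 fold change was 0.06, so the place of Spib among the members below 0 rests on it. Over all alternatives the log2 fold change of Spib ran from -1.43 to 0.06.

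In liver the log2 fold changes with 3C were -0.71 ± 0.31 for Spi1 and -0.75 ± 0.47 for Spib, and the groups overlapped. Without DMSO liver replicate 1 that of Spi1 was -0.45, and without DMSO liver replicate 4 that of Spib was -0.26. The marker lists with a median log2 fold change below 0 included those of T cells, B cells and macrophages, and none of their genes was called. The T cell markers summed to 14.3 to 21.8 CPM with DMSO and 9.49 to 10.9 CPM with 3C, without overlap (0 of 9 above a log2 fold change of 0, median -0.82). Of the B cell markers 0 of 8 were above 0 (median -0.42), and of the macrophage markers 2 of 14 (median -0.34), and their part in the result was not tested. Spi1 stood at 22.1, 15.5, 13.7 and 7.92 CPM with DMSO and 7.13, 13.6, 6.66 and 8.52 CPM with 3C. Spi1 was the only member with an unadjusted p below 0.05 (0.0392). In edgeR 0 of 13042 genes were called, 436 (3.34%) had an unadjusted p below 0.05, and DESeq2 called 2.

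In fibroblasts 7 members passed the filter on low counts, and Spib, Elf3 and Ehf did not. None was called in edgeR or DESeq2, against 1.87% of 13449 genes in edgeR, and 2 had an unadjusted p below 0.05, against 20.2% of all genes. Ets1 stood at 22.3, 25.8 and 23.2 CPM with DMSO and 20.6, 16.9 and 18 CPM with 3C, which did not overlap, and 12.5% of all genes were lower without overlap. Its log2 fold change was -0.36 ± 0.13 (edgeR adjusted p = 0.162), and that of Elf1 was 0.36 ± 0.14 (adjusted p = 0.195). Spi1 was low there, at 1.87 to 1.98 CPM with DMSO and 0.875 to 1.97 CPM with 3C. The macrophage markers summed to 269 to 343 CPM with DMSO and 122 to 181 CPM with 3C in these cultures, while Cd163, one of them, had 0 counts in the DMSO libraries. Of the 11 SPI1 targets tested there, 2 were called lower, against 0.632% of all genes, namely Lyz2 (-1.35 ± 0.18) and Ncf1 (-1.49 ± 0.31).

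ATAC-seq peaks showed which promoters were open, a promoter peak being one that reached within 1 kb of any annotated start. The height of a peak is its fold enrichment over the local background. Ets1 had the highest promoter peaks of the members, at 7.90 to 11.4 in kidney and 7.47 to 13.3 in liver, and Elf3, Ets2, Elf1 and Elf4 also had a peak in all 12 libraries. Spi1 had lower peaks, at 2.38 to 3.58 in all 6 kidney libraries and at 2.79 to 4.30 in 5 of 6 liver libraries. These lay at different starts of Spi1. In old kidney replicate 3, young kidney replicate 2 and young liver replicate 3 the nearest start was chr2:91082408 or 91082390. In the others it was 91096780 or 91096096. Spib had no promoter peak in any of the 12 libraries, whose lists held 93072 to 136849 peaks each. Erg had a promoter peak in 2 of 6 kidney and 3 of 6 liver libraries, and Ehf in 6 of 6 and 4 of 6.

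**Figure D4:**
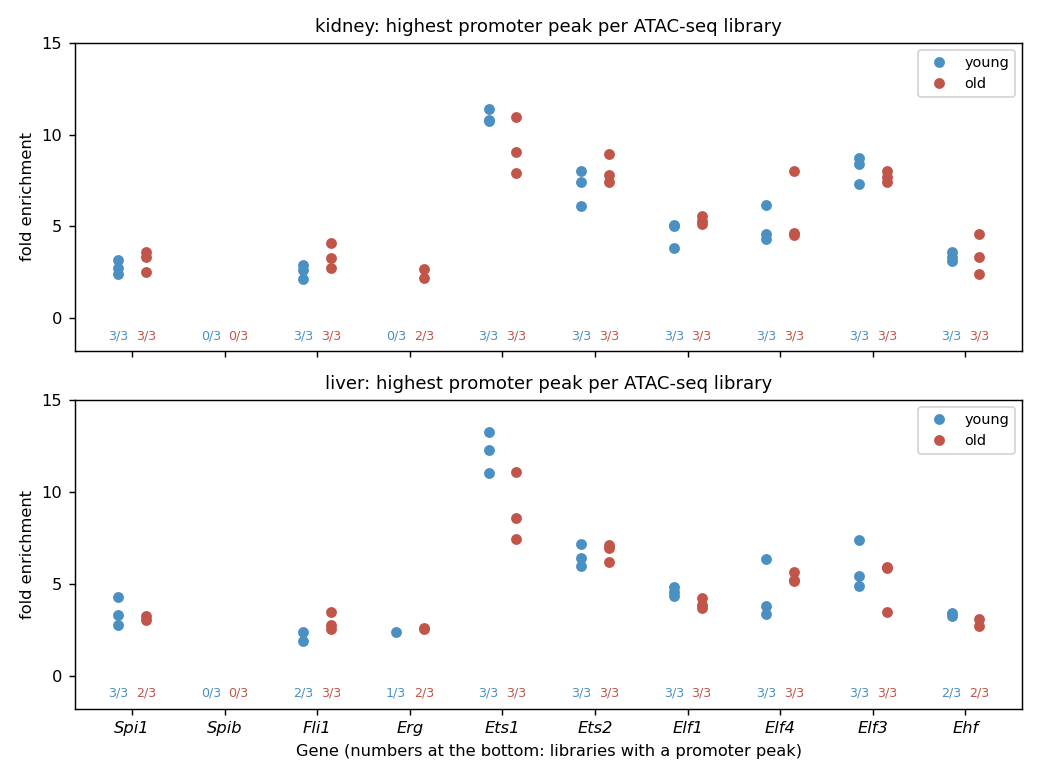
Highest promoter peak (fold enrichment, vertical axis) of each member per ATAC-seq library in kidney (top) and liver (bottom), young in blue and old in red, with the number of libraries that had a peak out of 3 below. Ets1 has the highest peaks in liver and kidney, and Spib has none.

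No member had a promoter region gained or lost with age in either tissue, that is, present in all 3 libraries of one age and none of the other. Of 24534 genes, 2.04% had one in kidney and 2.22% in liver. In height, Elf1 was the only one of the members with a peak in all 6 libraries of a tissue whose ages did not overlap, and it did so in both tissues, in opposite directions. In kidney its peak stood at 5.09, 5.0 and 3.81 in the young and 5.29, 5.11 and 5.56 in the old mice, and in liver at 4.34, 4.58 and 4.82 in the young and 4.24, 3.71 and 3.84 in the old. The exact permutation p was 0.1 in each, the smallest that 3 against 3 allows, and 1 of 8 members with a peak in all kidney libraries and 1 of 5 in liver compare with 25.1% and 14.4% of all such genes. The start of Wbp4 lies within 1 kb of the Elf1 peak. In young kidney replicate 1 the highest Elf1 peak lay at another start of the gene.

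Around the whole gene, from 10 kb before to 10 kb after, the numbers of peaks were compared between ages with exact permutation tests, where 3 against 3 libraries cannot go below 0.1 and so no member could pass. In young and old kidney Spi1 had means of 8.0 ± 1.0 and 8.67 ± 0.577 peaks, and in liver 8.0 ± 1.0 and 7.67 ± 2.52 (SD, n = 3). Ehf had more peaks in kidney, at 8 to 11 per library (mean 9.50 ± 1.22, SD, n = 6), than in liver, at 2 to 5 (3.33 ± 1.03), with an exact permutation p of 0.00216 and 0.0216 adjusted over the 10 members. This test of tissue, over both ages, was added after the values were seen, and the other 9 members had adjusted p of 0.216 or above. The log2 RNA levels of Ehf differ between these tissues in the same direction.

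Inside the members, 5 regions were gained or lost. Erg gained one in kidney (chr16:95573259-95573568) and one in liver (chr16:95446248-95446922), Elf1 gained one in liver (chr14:79511538-79511866) and Fli1 gained one in liver (chr9:32445870-32446127), all in introns. Ets1 lost one in kidney (chr9:32752644-32753055) that touches an exon. They lay 3.97 to 95.6 kb from the nearest start and had fold enrichments of 2.14 to 4.74. The lowest −log10 q of their peaks was 0.927 for Erg in kidney and 1.80 for Elf1 in liver, so these are weak peaks. From 10 kb before to 10 kb after the gene, Erg had 19 and Ets1 44 regions in kidney. In liver Erg had 35, Elf1 35 and Fli1 43. Of all regions, 0.323% were gained and 1.52% lost in kidney, and 0.543% and 0.985% in liver. Every old kidney library held fewer peaks (93072 to 108970) than every young one (115836 to 128395). In liver the ages overlapped, at 123776 to 130409 peaks in the young and 112125 to 136849 in the old. The part of peak numbers in these shares was not tested. The middle of the kidney region of Erg and the liver region of Elf1 is printed on the plus strand, with GGAA and TTCC in capitals, to show the cores in regions gained inside members.

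Erg, gained in kidney, chr16:95573314-95573514: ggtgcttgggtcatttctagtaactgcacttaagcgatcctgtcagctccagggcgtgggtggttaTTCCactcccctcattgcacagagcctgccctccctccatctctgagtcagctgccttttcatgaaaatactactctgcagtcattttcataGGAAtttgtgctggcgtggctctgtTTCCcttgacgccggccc

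Elf1, gained in liver, chr14:79511602-79511802: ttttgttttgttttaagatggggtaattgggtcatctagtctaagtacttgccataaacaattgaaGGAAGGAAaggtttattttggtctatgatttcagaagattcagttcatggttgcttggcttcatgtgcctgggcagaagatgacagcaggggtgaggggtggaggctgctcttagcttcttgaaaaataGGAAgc

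Each held 3 cores and neither held GAGGAAGT or CCGGAAGT. Across the genome, the letters that SPI1 and SPIB prefer were more frequent in gained regions. GAGGAAGT lay within 100 bp of the summit, on either strand, in 93 of 826 regions gained in kidney (11.3%), in 61 of 3896 lost (1.57%) and in 2.61% of all 255698 regions. In liver the shares were 8.64% of 1922 gained, 1.12% of 3482 lost and 2.88% of all 353652 regions. CCGGAAGT lay in fewer regions. In kidney it was in 9 of the 826 gained (1.09%), 0.308% of lost and 0.612% of all regions, and in liver in 12 of the 1922 gained (0.624%), 0.0862% of lost and 0.406% of all. These differences were not tested. Median GC content around the summit was 49.0% in gained and 49.8% in lost kidney regions and 49.8% and 47.3% in liver. These shares are a description and show no binding by a given factor.

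**Figure D5:**
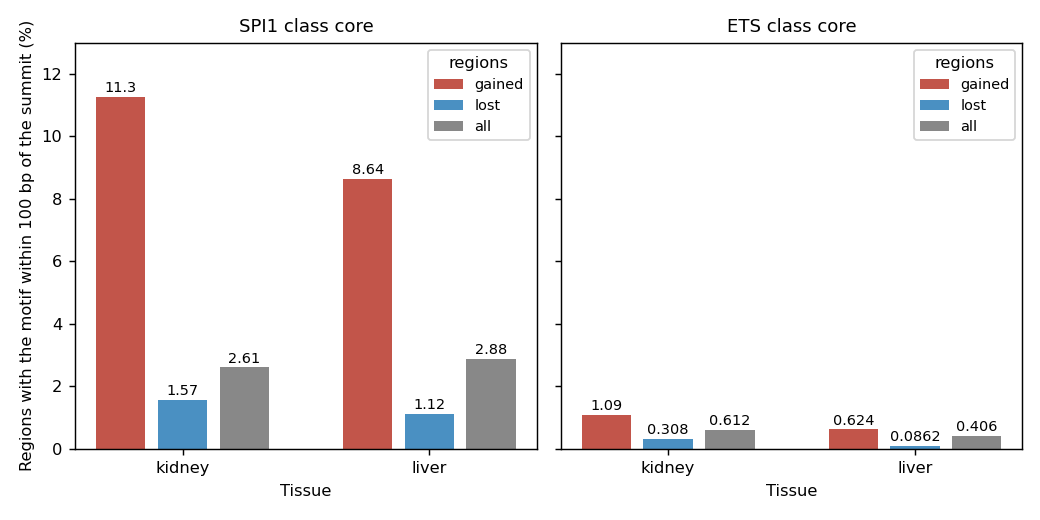
Share of regions (%, vertical axis) with the SPI1 class letters GAGGAAGT (left) or the ETS class letters CCGGAAGT (right) within 100 bp of the summit, for regions gained, lost and in all, by tissue. The gained bars for GAGGAAGT reach 11.3% in kidney and 8.64% in liver.

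In kidney 2 of the 14 SPI1 target genes had a gained region within 10 kb, neither with GAGGAAGT, against 2.95% of all 24534 genes. In liver 3 of the 14 had 5 such regions, 1 of them with it, against 5.96% of all genes with a gained region. These shares were not tested. That region lay in an intron of Cybb, which encodes the phagocyte oxidase subunit gp91phox, and 100 bases around the match, in capitals, are shown on the plus strand. Cybb had a log2 fold change with age of 1.23 ± 0.30 in liver (edgeR adjusted p = 0.0590) and was called higher in old kidney (2.04 ± 0.40).

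Cybb, gained in liver, chrX:9474517-9474616: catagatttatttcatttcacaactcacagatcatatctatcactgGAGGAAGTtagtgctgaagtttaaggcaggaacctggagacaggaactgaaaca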

How the data were processed

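RNA-seq reads were, by the authors' account and the submitters' processing notes, trimmed with Trimmomatic 0.39, mapped by HISAT2 2.2.1 against mm10 and assigned to genes by HTSeq 0.12.4 in unstranded mode. The authors deposited counts, as whole reads for each gene. For the ATAC-seq libraries the authors used Bowtie2 2.3.5.1 and removed duplicates, and MACS2 called peaks in each library. The deposited peaks carry a fold enrichment, a ratio to the local background. They also carry −log10 p and −log10 q values, per the file format the authors deposited. No peak lay beyond a GRCm38 chromosome end, so that build and GENCODE vM21 were used, where 24534 gene names matched.

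Each comparison was fitted on its own over all genes in edgeR 4.0.16 (R 4.3.3) with TMM, filterByExpr (minimum count 10) and the quasi-likelihood F test. The SE is the log2 fold change over the root of F. The untreated and the DMSO and 3C libraries were not compared, since all 22 of the latter carry 0 in the tallies of unaligned, multiply aligned and low-quality reads. On simulated counts with 200 genes changed by a fold of 4, 183 were recovered for the kidney age comparison (14495 genes), with 4 false calls. The 54 replicate pairs all differed beyond sampling noise. Floors cover counting error only, while SE and SD include the spread between libraries. Replicate numbers deviated together in all 4 pairs (r of 0.10 to 0.45) only between young kidney and young liver, where the replicate block changed no call (3 members with and without it).

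Ratios used a prior of 0.1 CPM. Exact permutation tests are two-sided and count the splits with at least the observed absolute difference. For the p printed with 1 library left out of a Spib ratio, the smaller one-sided p was doubled instead. The peaks of a tissue's 6 libraries were merged into regions, and a region was gained when every old and no young library had a peak in it. All members are described. From the lists of other ETS genes, partner factors and SPI1 targets, up to 4 called genes per direction and comparison with the smallest p are named, beside counts of all, and the 3 genes most correlated with Spi1, Spib, Fli1 and Erg, leaving out names that begin with Gm and a digit or end in Rik. Ehf, Ncf4 and Cybb values outside these rules were chosen after they were seen. The members and lists were chosen with earlier results of these data known. Python 3.11.15, numpy 2.4.6 and scipy 1.17.1 were used. Alternatives were DESeq2 1.42.0, RLE factors, other filters, the adjusted p alone, the block, other peak thresholds, promoter widths and overlaps, and leaving out each library. Removal of a length trend and an overlap of 50% of the region were chosen after seeing the data.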

Additional observations from a re-analysis of the deposited data

Results flagged for a closer look

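In groups of 4 libraries, a value was taken as standing apart where its gap to the nearest other value, as a share of the group's range, passed Dixon's 95% limit. Of 80 groups of member values 5 did, and chance flags about 1 in 20 groups. Spib was at 0.301 CPM in young liver replicate 4 against 0.904 to 0.970 CPM in the other 3. Spib was at 7.15 CPM in DMSO kidney replicate 3 against 1.24 to 1.84 CPM, and Elf4 was at 13 CPM in the same library against 8.79 to 9.24 CPM. Elf1 was at 15.6 CPM in old liver replicate 1 against 38.7 to 42.2 CPM, the library with the steepest fall over exon length. Ets2 was at 52.9 CPM in DMSO liver replicate 1 against 30.8 to 34.2 CPM.

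The age difference in the height of the Elf1 promoter peak was opposite in the tissues. Old minus young gave 0.21 on the log2 scale for kidney and -0.22 for liver. The 2 differ by 0.43. Elf1 was picked for groups that did not overlap in either tissue, which fixes the outcome of a permutation test. For that reason the test is set aside and no p is given for the difference.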

How the results depend on the processing

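Of 179 recomputed counts of members, 160 stayed within 1.5 times the reported count. In liver with age, DESeq2 called 3 members and 595 genes against 0 and 267 in edgeR. All-gene counts also moved to 1669 with the adjusted p alone in kidney with age (882 in the main test), to 567 so in fibroblasts (251), to 9187 so between young tissues (5987), to 745 with DESeq2 in the interaction (258), to 5 and 2 with DESeq2 for 3C in kidney and liver (0), and to 139 and 138 with the replicate block in liver with age and in the interaction.

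Leaving out 1 library gave 0 to 1 members called in liver with age, where old liver replicate 4 decided it, 3 to 4 between young tissues, 2 to 3 between old tissues and 2 throughout in kidney with age. The genes called in all then ranged from 76 to 444 in liver with age, 114 to 456 in the interaction, 118 to 251 in fibroblasts and 0 to 3 for 3C in kidney. Spi1 kept its call with age in kidney in all 15 alternatives, with log2 fold changes of 2.02 to 2.58, and so did Spib with 3.02 to 3.90. Members with a gained or lost promoter region (0 in each tissue) numbered 0 to 2 in kidney and 0 to 2 in liver, and those whose peak heights did not overlap numbered 1 to 2 in kidney and 1 to 3 in liver. The former came without young kidney replicate 1 (Ehf) or 2 (Elf4, Fli1), old kidney replicate 2 (Ehf) or 3 (Spi1, Erg), young liver replicate 2 (Ets2) or old liver replicate 2 (Ehf, Erg). Promoters of 2 kb gave 2 such members in each tissue, Elf1 and Ehf, and an overlap of 50% of the region gave 1 gained or lost in liver, Fli1. An overlap of 50% of the peak changed nothing, since peaks lie whole within merged regions. No ratio passed in any alternative, and with so few libraries an exact permutation p has few possible values. The causes were not tested.

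The replicate block left the members called at 2 in kidney with age, 0 in liver with age, 0 in the 3C comparisons and 0 for the interaction, and gave 2 between old tissues, where Spi1 was lost (log2 -1.07, adjusted p = 0.0562 in edgeR). A minimum mean of 1 CPM lost it too (log2 -0.995). Outside the young tissues the numbers showed no pairing. Depth limits Spib in young kidney and Elf3 in liver, with counts as low as 1 and 2, and peak lists give no read depth.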
